A study of Mus musculus with 12 samples.

Results

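Neuroglobin and cytoglobin, the globins of tissue cells, were set beside the adult haemoglobin genes and the red-cell enzyme gene Alas2 in RNA bound to tagged ribosomes and in whole-tissue RNA of the mouse hypothalamus and midbrain. The genes were 7, taken by symbol: Ngb, Cygb, Hba-a1, Hba-a2, Hbb-bs, Hbb-bt and Alas2. Of these, 5 had a row among the 32531 gene rows of the count files and all 5 passed the filter on low counts, which left 18128 genes. Hba-a1 and Hbb-bt were not analysed here. The set was chosen by its measured differences between the ribosome fraction and the whole tissue, which were already known, so those differences are given as a description without a test. The differences between the 2 regions within the ribosome fraction and within the whole tissue were not part of that choice and were tested. A regional difference of the ribosome-against-tissue values themselves reuses that choice, so its test results are given as a description.

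The animals were adult mice of 1 transgenic line, JX883, carrying Slc17a6-EGFP/Rpl10a, in which the large-subunit ribosomal protein Rpl10a is fused to EGFP and driven by Slc17a6. Slc17a6 encodes the vesicular glutamate transporter VGLUT2, found in most excitatory neurons below the cortex. In translating ribosome affinity purification (TRAP), antibodies against EGFP pull down the tagged ribosomes with the RNA on them, and this RNA is sequenced. The 4 groups were the hypothalamus IP (immunopurified ribosome-bound RNA), the hypothalamus input (RNA of the whole dissected tissue), the midbrain IP and the midbrain input, with 3 libraries each, numbered 1 to 3. All groups came from mice with the transgene, and no IP from untagged mice was analysed here. The labels gave no age beyond adult, no sex and no statement of how many animals a library held, so p-values measure the spread between these libraries, which may be technical. The IP libraries carried one sequencing index and the input libraries another, so fraction and index cannot be told apart. Within each number, the hypothalamus and midbrain libraries were on different lanes, so region and lane cannot be told apart there.

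Globins are small haem proteins that bind oxygen and other gases. Adult haemoglobin is made in maturing red cells from alpha chains (Hba-a1, Hba-a2) and beta chains (Hbb-bs, Hbb-bt), and Alas2 starts haem synthesis in those cells. Mature mouse red cells have no nucleus and no ribosomes, while young reticulocytes still carry haemoglobin mRNA, so blood left in the vessels brings such mRNA into tissue. Neuroglobin is found mainly in neurons, with high levels known in the hypothalamus, and has been linked to protection from low oxygen. Cytoglobin is a broadly expressed globin of fibroblast-like cells and of some neurons.

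The libraries held 41909019 to 55148109 counted reads. Levels are given in CPM, counts scaled to the size of the library after adjustment by the trimmed mean of M values, and the floor of 3 counts a library equals 0.0537 to 0.0709 CPM. No molecular identifiers were used, so floors and counting intervals cover counting error only. Slc17a6 averaged 2117 ± 1227 CPM in the hypothalamus IP against 349 ± 154 CPM in the hypothalamus input, and 2737 ± 1087 CPM in the midbrain IP against 775 ± 402 CPM in the midbrain input (SD, n = 3 libraries each). The 8 markers of oligodendrocytes summed to 7.29% of the input level in the IP of the hypothalamus and 6.26% in that of the midbrain, and the 8 neuron markers to 178% and 142%. Both replicate 1 IPs stood apart by their ribosomal RNA: Rn45s made up 12.3% of counts in the hypothalamic one and 12.5% in the midbrain one, against 5.21% to 6.85% in the other 4 IPs. Results that change without replicate 1 are named where they occur.

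The haemoglobin genes are near-copies of one another, and this bears on how they were counted. A stretch of the coding sequence of the alpha-chain genes on chromosome 11, taken from the GENCODE transcripts at coding bases 367 to 395 counted from the start codon, shows the one base in which they differ, in capitals:
Hba-a2: catgcctctctggaTaaattccttgcctc
Hba-a1: catgcctctctggaCaaattccttgcctc
The change T381C, with the Hba-a2 base first, was the only difference in 426 coding bases. Of the 505 windows of 50 bases in the Hba-a2 transcript, 86.9% were also present in Hba-a1. For the beta chains, 65.8% of the windows of Hbb-bs were present in Hbb-bt, and their coding sequences were 99.8% identical. Ngb and Cygb shared no 50-base window with each other or with a haemoglobin gene, and the Ngb coding sequence was 44.9% identical to that of Cygb and 48.0% to that of Hba-a2. Reads with more than 1 alignment were kept apart by the authors' counting, at 70.8 to 115 alignments per 100 counted reads in the IPs and 48.9 to 61.9 in the inputs. The levels of Hba-a2 and Hbb-bs therefore come from the parts of each gene that set it apart from its copy, and are uncertain as totals of alpha and beta chains.

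The start-site regions of the blood genes show which short sequence elements they share. The 150 bases before the RefSeq start (GRCm38.p6, the gene's own strand) are printed for the 3 blood genes with a row, in lower case, with capitals for 4 motifs on either strand. The first was GATAA, read on the other strand as TTATC, the core bound by GATA factors. The second was CACCC, read on the other strand as GGGTG and bound by Klf factors. The others were CCAAT, read there as ATTGG, and TATAA, read there as TTATA. They lie at chr11:32296342-32296491 (plus strand) for Hba-a2, chr7:103827929-103828078 (minus strand) for Hbb-bs and chrX:150547267-150547416 (plus strand) for Alas2.
Hba-a2: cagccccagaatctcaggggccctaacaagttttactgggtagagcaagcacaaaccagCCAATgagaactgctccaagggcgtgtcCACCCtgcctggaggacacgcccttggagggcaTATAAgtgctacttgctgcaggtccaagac
Hbb-bs: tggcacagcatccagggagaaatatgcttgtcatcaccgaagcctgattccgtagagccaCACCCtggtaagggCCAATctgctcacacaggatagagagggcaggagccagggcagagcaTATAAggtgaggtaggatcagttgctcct
Alas2: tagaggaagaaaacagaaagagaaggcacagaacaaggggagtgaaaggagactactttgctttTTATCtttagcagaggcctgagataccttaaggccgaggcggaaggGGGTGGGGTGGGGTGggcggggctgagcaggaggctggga
Both chain genes held 1 CACCC, 1 CCAAT and 1 TATAA each, with TATAA beginning 30 bases before the start in Hba-a2 and 29 in Hbb-bs. Alas2 held 3 CACCC side by side and 1 GATAA, all on the other strand, and neither of the other 2 motifs. Among 32851 RefSeq regions of the same length, 37.4% held CACCC, 24.5% CCAAT, 14.2% TATAA and 13.3% GATAA. The Hba-a1 region was 96.1% identical to that of Hba-a2, and that of Hbb-bt 70.9% identical to that of Hbb-bs, whereas Hba-a2 and Hbb-bs were 48.0% identical. These matches describe the letters and are not shown to be bound. The regions of Ngb and Cygb are named only.

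Neuroglobin was higher in ribosome-bound RNA than in whole tissue in both regions, and its level in whole tissue was higher in the hypothalamus than in the midbrain. Ngb lies at chr12:87097531-87102539 on the minus strand (mm10). The hypothalamus IP held 135, 90.7 and 53.9 CPM in replicates 1, 2 and 3, against 47.2, 42.4 and 29.8 CPM in the hypothalamus input. The midbrain IP held 63.1, 37.7 and 25.1 CPM, against 12.4, 8.21 and 5.70 CPM in the midbrain input. Every IP library stood above every input library of its region. Replicate 1 was the highest and replicate 3 the lowest of each of the 4 groups.

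The ratio of the Ngb means, IP over input, was 2.35 in the hypothalamus and 4.78 in the midbrain. Taken within replicate numbers, the ratio was 2.87, 2.14 and 1.81 in the hypothalamus and 5.08, 4.59 and 4.41 in the midbrain, so all 3 midbrain ratios exceeded all 3 hypothalamic ones. The fitted log2 fold change was 1.23 (SE 0.40) in the hypothalamus and 2.26 (SE 0.41) in the midbrain. Without hypothalamus IP replicate 1, the library with the highest level, the hypothalamic value was 0.86. In the midbrain, 90 of the 18128 genes tested had a larger log2 fold change than Ngb, and in the hypothalamus 879 had. The set was chosen by this comparison, so these ranks are a description only. In bulk samples such as these, fewer cells of a type and less RNA per cell cannot be told apart.

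**Figure D1:**
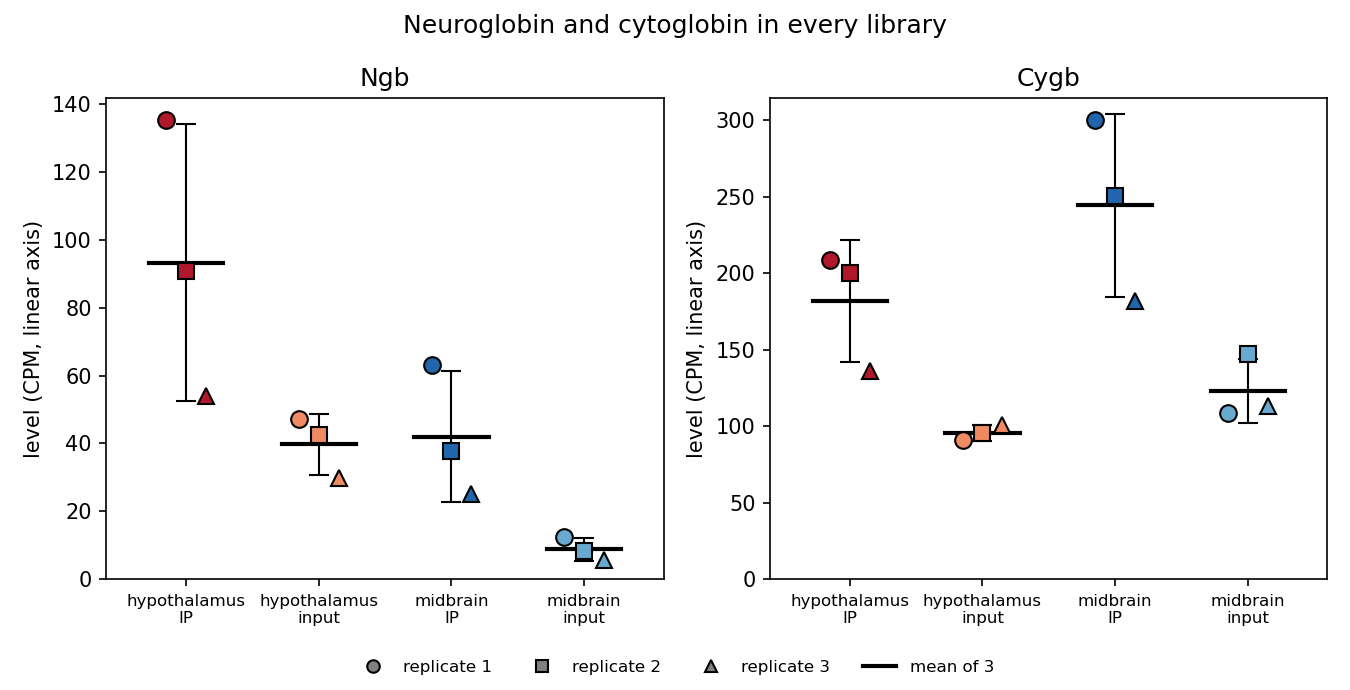
Levels of Ngb and Cygb in CPM on linear axes in each of the 12 libraries, with symbols for replicates 1, 2 and 3, a line for the mean and bars for the SD (n = 3). The hypothalamus IP libraries lie between 53.9 and 135 CPM for Ngb, and the midbrain inputs between 5.70 and 12.4 CPM, while for Cygb the midbrain IP is the highest group with a mean of 244 CPM.

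Between the regions, Ngb averaged 39.8 ± 9.01 CPM in the hypothalamus input and 8.78 ± 3.40 CPM in the midbrain input (SD, n = 3 each), a 4.53-fold difference, and no hypothalamic library was as low as a midbrain one. The log2 fold change of 2.18 (SE 0.41, 95% interval 1.37 to 2.98) passed edgeR's quasi-likelihood test across all genes (Benjamini-Hochberg adjusted p = 0.0199). It was lost, at values of 1.95 to 2.14, without hypothalamus input replicate 1 (adjusted p = 0.0642) or 2 (0.0814), or without midbrain input replicate 2 (0.102) or 3 (0.101), and it was 2.37 without replicate 1 in all groups (adjusted p = 0.0121). Of the 5 genes, Ngb was the one called between the inputs, in a comparison where 1.61% of all genes tested were called, 1.00% higher and 0.601% lower in the hypothalamus (291 genes, or 1097 with the replicate number as a block).

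Between the IPs, Ngb averaged 93.3 ± 40.8 CPM in the hypothalamus and 42 ± 19.4 CPM in the midbrain (SD, n = 3 each). The ranges overlapped, since hypothalamus IP replicate 3 lay below midbrain IP replicate 1. The log2 fold change of 1.15 (SE 0.40, 95% interval 0.38 to 1.93) did not pass edgeR's test (adjusted p = 0.137). In a fit with a block for the replicate, the value was again 1.15 and passed (adjusted p = 0.000306), and DESeq2 gave 1.16 (adjusted p = 0.0383). In the fit without the block, edgeR called none of the 5 genes between the IPs. It called 4.26% of all genes tested there, 2.05% higher and 2.21% lower in the hypothalamus (773 genes, or 2024 with the block). At an unadjusted p under 0.05 in edgeR's test, Ngb and Hba-a2 were below the threshold, which 3288 of the 18128 genes tested met. DESeq2 called Ngb alone, and limma-voom called none of the 5.

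The difference between the regional IP effects of Ngb was −1.03 on the log2 scale (SE 0.56, 95% interval −2.12 to 0.07) and did not pass edgeR's test (adjusted p = 0.848). With the replicate block it was −1.08 and passed (adjusted p = 0.0376). This contrast is made of the IP-against-input values by which the set was chosen, so these p-values are a description only. In this comparison 0.0772% of all genes were called, 0.0607% higher and 0.0165% lower, which is 14 genes, or 105 with the block. None of the 5 genes was called or had an unadjusted p under 0.05 in edgeR's fit without the block, against 1190 of the 18128 genes tested at that unadjusted threshold. DESeq2 and limma-voom called none of the 5.

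Cytoglobin was the most abundant of the 5 genes in every group, and its IP level was close to 2-fold that of the input in both regions. Cygb lies at chr11:116645595-116654313 on the minus strand (mm10), and its first part overlaps Prcd on the other strand, with 8.62% of its 2331 exon bases shared. The hypothalamus IP held 209, 200.1 and 136 CPM in replicates 1, 2 and 3, against 90.7, 95.2 and 101 CPM in the hypothalamus input. The midbrain IP held 300.4, 251 and 182 CPM, against 109, 147 and 113 CPM in the midbrain input. The IP and input libraries of a region did not overlap, and replicate 3 was the lowest IP in both regions.

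The ratio of the Cygb means, IP over input, was 1.90 in the hypothalamus and 1.98 in the midbrain, and the fitted log2 fold changes were 0.93 and 0.99 (SE 0.21 each). The difference between these regional effects was −0.06 (95% interval −0.64 to 0.51, edgeR adjusted p = 1.00). Its sign turned without any one of 4 libraries and without replicate 1 in all groups. Between the regions, Cygb averaged 182 ± 39.9 CPM in the hypothalamic IPs and 244 ± 59.6 CPM in those of the midbrain, a log2 fold change of −0.43 (SE 0.21, edgeR adjusted p = 0.301). The inputs held 95.6 ± 5.0 CPM in the hypothalamus and 123 ± 21.1 CPM in the midbrain, a log2 fold change of −0.37 (SE 0.21, edgeR adjusted p = 0.586), although each midbrain input lay above each hypothalamic one. The 12 markers of mural cells and fibroblasts, cell types in which cytoglobin is also found, summed to between 3.10 and 4.06 CPM in the hypothalamus IP against 36.0 to 49.9 CPM in its input. In the midbrain they summed to between 8.48 and 17.8 CPM in the IP against 60.7 to 76.0 CPM in the input.

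Per length of exon, the order of Ngb and Cygb was the same in all groups. Cygb held 77.9 CPM per kilobase in the hypothalamus IP, 41.0 in the hypothalamus input, 105 in the midbrain IP and 52.8 in the midbrain input. Ngb held 54.2, 23.1, 24.4 and 5.10 CPM per kilobase in the same groups. The counts of Ngb per 100 counts of Cygb were between 39.7 and 64.8 in the hypothalamus IP libraries, between 29.5 and 52.0 in the hypothalamus inputs, between 13.8 and 21.0 in the midbrain IPs and between 5.02 and 11.4 in the midbrain inputs. Neuroglobin was thus a smaller share of the tissue globins in every midbrain library than in any hypothalamic one.

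The haemoglobin transcripts were lower in the ribosome fraction than in whole tissue in both regions. In the IPs Hbb-bs stayed above the floor, while Hba-a2 was under it in the midbrain and at it in hypothalamus replicate 3. Hbb-bs, an adult beta chain at chr7:103826534-103828096 on the minus strand (mm10), held 0.624, 0.698 and 0.262 CPM in the hypothalamus IP (31, 38 and 14 counts), against 7.43, 18.2 and 9.34 CPM in the hypothalamus input (353, 1016 and 464 counts). The midbrain IP held 0.170, 0.557 and 0.190 CPM (8, 29 and 9 counts), against 9.43, 10.6 and 6.24 CPM in the midbrain input (491, 509 and 264 counts). The highest IP library stood far below the lowest input. Replicate 2 was the highest of each of the 4 groups.

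Hba-a2, an adult alpha chain at chr11:32296489-32297298 on the plus strand (mm10), had fewer counts than Hbb-bs in every library. Of its 50-base windows 13.1% were absent from Hba-a1, against 34.2% of those of Hbb-bs absent from Hbb-bt. Their levels therefore do not rank the alpha against the beta chains. The hypothalamus IP held 0.141, 0.184 and 0.0562 CPM (7, 10 and 3 counts), against 1.18, 3.53 and 2.09 CPM in the hypothalamus input (56, 197 and 104 counts). The midbrain IP held 2, 2 and 0 counts, under the floor in all 3 libraries, against 1.25, 1.82 and 1.94 CPM in the midbrain input (65, 88 and 82 counts). The mean IP level was 4.53% of the input for Hbb-bs and 5.60% for Hba-a2 in the hypothalamus, and 3.50% and 1.61% in the midbrain. The fitted log2 fold changes were −4.46 (SE 0.57) and −4.82 (SE 0.59) for Hbb-bs in hypothalamus and midbrain, and −4.13 (SE 0.78) and −5.82 (SE 0.89) for Hba-a2. The last rests on 4 counts in the midbrain IP and depends on the prior count of the fit.

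**Figure D2:**
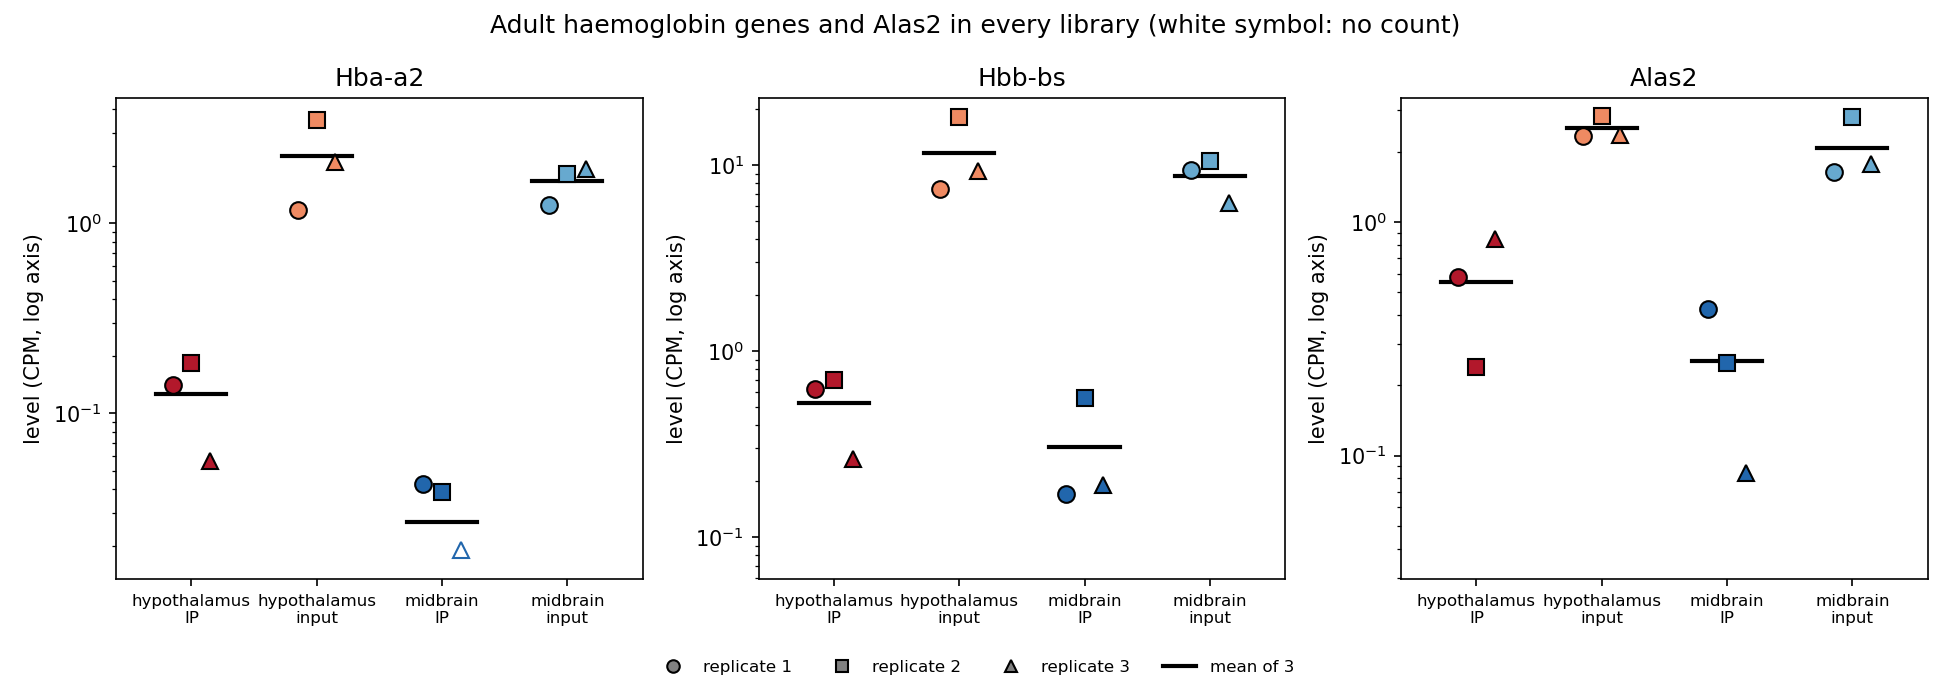
Levels of Hba-a2, Hbb-bs and Alas2 in CPM on log axes in each of the 12 libraries, with symbols for the replicates and a line for the mean of 3; the white symbol marks a library with no count, drawn at an arbitrary height. All IP libraries of the 3 genes lie below all inputs, and Hbb-bs replicate 2 is the highest of each group.

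A further beta-globin row, Hbb-b2, was chosen after its values were seen and is no member of the set. The hypothalamus IP libraries held 7, 5 and 0 counts of it against 129, 319 and 82 in the inputs, and the midbrain IP libraries held 8, 9 and 4 counts against 196, 148 and 64 in the inputs. Its mean IP level was 2.31% of the input in the hypothalamus and 5.12% in the midbrain. The symbol has no locus in the GENCODE annotation used here, so which transcript the row counts could not be worked out.

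For comparison with cells that should not carry the tag, the same percentage was taken over marker lists of other cell types. The 8 microglia markers summed to 3.77% of the input level in the IP of the hypothalamus and 6.59% in that of the midbrain, and the 8 astrocyte markers to 17.3% and 16.5%. The 10 endothelial markers summed to 25.2% and 21.9%, and that sum rests mainly on Esam and Pecam1, which were picked out after their values were seen. Esam had log2 fold changes of 1.45 and 0.65 and Pecam1 of −0.97 and −1.35, and none of these passed edgeR's test. The other 8 endothelial markers lay between −9.49 and −3.46 in the hypothalamus, where Cldn5, Ly6c1 and Slco1a4 had no count in any IP library. The percentages of Hbb-bs lay between or below those of the microglia and oligodendrocyte lists. Of the microglia markers, C1qa had no count in any hypothalamus IP library.

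Between the regions, no haemoglobin difference passed edgeR's test. Hbb-bs averaged 11.7 ± 5.74 CPM in the hypothalamus input and 8.74 ± 2.24 CPM in the midbrain input (SD, n = 3 each), a log2 fold change of 0.41 with an interval of −0.54 to 1.36 (adjusted p = 0.902). Hba-a2 averaged 2.27 ± 1.18 CPM and 1.67 ± 0.37 CPM in the same inputs, a log2 fold change of 0.44 with an interval of −0.87 to 1.75 (adjusted p = 0.939). Both signs turned without hypothalamus input replicate 2, the library with the most haemoglobin counts. Between the IPs, Hbb-bs gave 0.77 (SE 0.55, adjusted p = 0.516) and Hba-a2 gave 2.12 (SE 0.87, adjusted p = 0.217). The second compares 20 counts over the hypothalamic libraries with 4 over the midbrain ones. The differences between the regional IP effects were 0.36 (SE 0.73, adjusted p = 1.00) for Hbb-bs and 1.68 (SE 1.08, adjusted p = 0.922) for Hba-a2, and the first was −0.36 without replicate 1 in all groups.

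Alas2, the erythroid form of the first enzyme of haem synthesis, was also lower in the IPs than in the inputs, and kept a larger percentage of its input level than the chains did. It lies at chrX:150547375-150570638 on the plus strand (mm10). The hypothalamus IP held 0.584, 0.239 and 0.843 CPM (29, 13 and 45 counts), against 2.34, 2.85 and 2.36 CPM in the hypothalamus input (111, 159 and 117 counts). The midbrain IP held 0.425, 0.250 and 0.0846 CPM (20, 13 and 4 counts), against 1.63, 2.82 and 1.77 CPM in the midbrain input (85, 136 and 75 counts). The groups of a region did not overlap. The mean IP level was 22.1% of the input in the hypothalamus and 12.2% in the midbrain, with fitted log2 fold changes of −2.17 (SE 0.63) and −3.02 (SE 0.66).

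All of the Alas2 locus lies within that of Apex2, a DNA repair gene on the other strand, and 311 of its 2403 exon bases (12.9%) are shared with exons of Apex2. The sources used here do not say whether the counting used strand, so reads of the 2 genes cannot be told apart where they overlap. Apex2 averaged 3.67 CPM in the hypothalamus IP against 6.93 CPM in its input, and 3.48 CPM in the midbrain IP against 4.54 CPM in its input. Reads that fell on more than 1 gene were set apart as ambiguous, at 3.24 to 3.79 per 100 counted reads in the IPs against 8.32 to 35.1 in the inputs. The part of Apex2 and of these ambiguous reads in the counts of Alas2, and of the ambiguous reads in those of Cygb, was not tested. Between the regions Alas2 gave a log2 fold change of 1.13 in the IPs (SE 0.64, edgeR adjusted p = 0.388) and 0.28 in the inputs (SE 0.60, adjusted p = 0.965), and the difference between its regional IP effects was 0.85 (SE 0.87, adjusted p = 1.00).

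**Figure D3:**
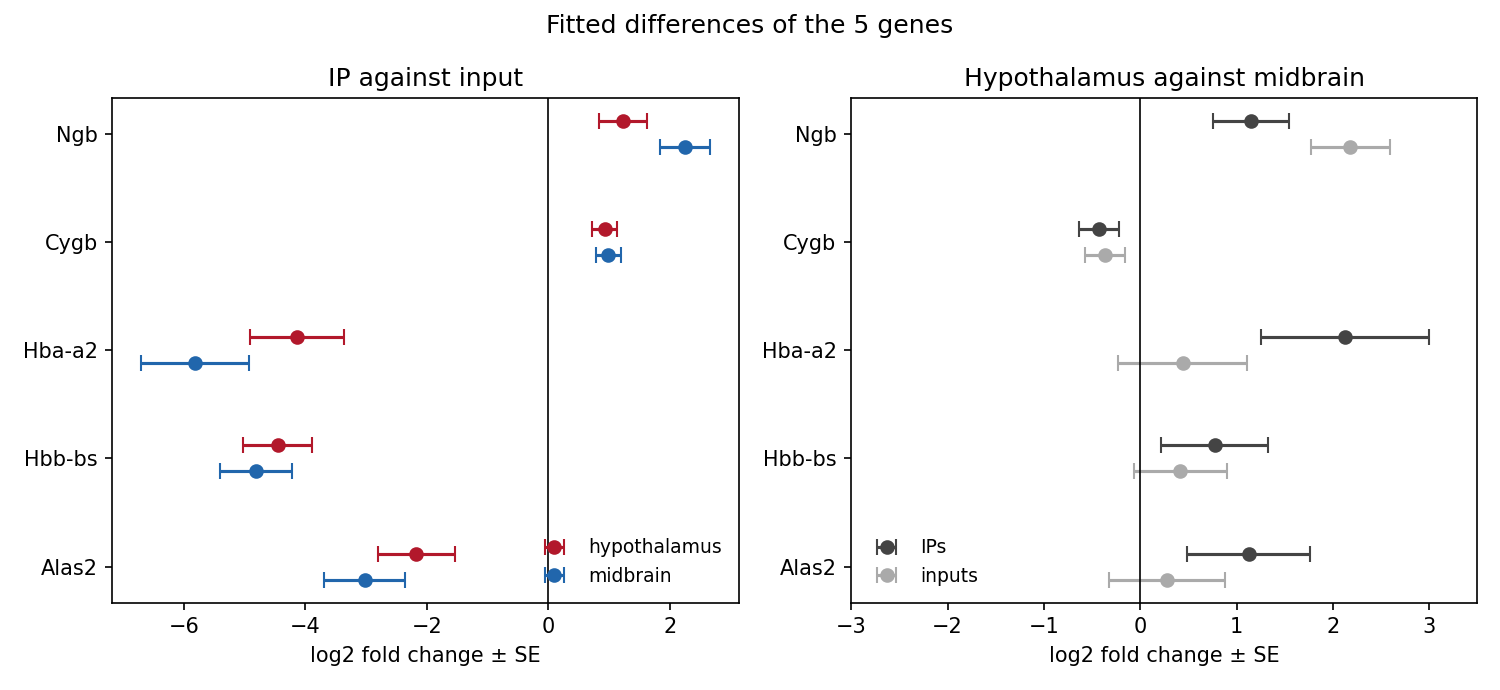
Fitted log2 fold changes of the 5 genes with bars of 1 SE, for IP against input in each region (left) and for hypothalamus against midbrain in the IPs and the inputs (right). Ngb and Cygb lie above 0 and the 3 blood genes below 0 in both regions on the left, and Ngb in the inputs, at 2.18, is the one value on the right that passed edgeR's test without a replicate block, while with the block Ngb between the IPs, at 1.15, passed too (adjusted p = 0.000306).

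In both regions the IP and input libraries of all 5 genes did not overlap. The share of all genes tested that did not overlap was not worked out. The set was chosen by these comparisons of IP against input, so nothing is read from that count. By edgeR's test, a different measure, 33.8% of all genes tested were called in the hypothalamus and 33.9% in the midbrain. The medians over all genes tested were −0.08 and −0.05 on the log2 scale. Without the trimmed-mean scaling, on library size alone, the median in the hypothalamus was −0.25, a shift that applies to every gene. The share of called genes that were higher in the IP was then 28.9%, against 42.1% with the scaling. Counted against Hbb-bs, Ngb had 130 to 217 counts per count of Hbb-bs in the hypothalamus IP libraries and 2.33 to 6.35 in the hypothalamus inputs. In the midbrain it had 67.8 to 372 in the IPs and 0.778 to 1.32 in the inputs, so that the midbrain inputs held about as many counts of Hbb-bs as of Ngb. The Hbb-bs row stands for only a part of the beta chains, since 65.8% of its 50-base windows are also in Hbb-bt.

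The ratios among the blood genes within a group need no scaling between libraries. Over the 3 libraries of a group, Hba-a2 had 24.1 counts per 100 of Hbb-bs in the hypothalamus IP (95% exact counting interval 14.0 to 39.6), against 19.5 (17.3 to 21.8) in the hypothalamus input, and 8.70 (2.27 to 23.8) in the midbrain IP against 18.6 (16.1 to 21.4) in the midbrain input. The midbrain IP value was 5.26 without replicate 1. Alas2 had 93.5, 34.2 and 321 counts per 100 of Hbb-bs in replicates 1, 2 and 3 of the hypothalamus IP, against 31.4, 15.6 and 25.2 in the hypothalamus input. In the midbrain IP, replicate 1 had 20 counts of Alas2 for 8 of Hbb-bs and replicates 2 and 3 had 44.8 and 44.4 per 100, against 17.3, 26.7 and 28.4 in the midbrain input. The IP libraries of a region thus differed among themselves more than 5-fold. Summed over the libraries, the ratio was 105 in the hypothalamus IP (76.7 to 143) against 21.1 (18.9 to 23.6) in its input, and 80.4 (50.7 to 127) in the midbrain IP against 23.4 (20.6 to 26.6) in its input. The intervals cover counting error and not the spread between libraries. The hypothalamus IP ratio was 60.9 without replicate 3 and 164 without replicate 2, and that of the midbrain IP was 44.7 without replicate 1 and 141 without replicate 2. These are values of the comparison by which the set was chosen, and nothing is read from them.

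**Figure D4:**
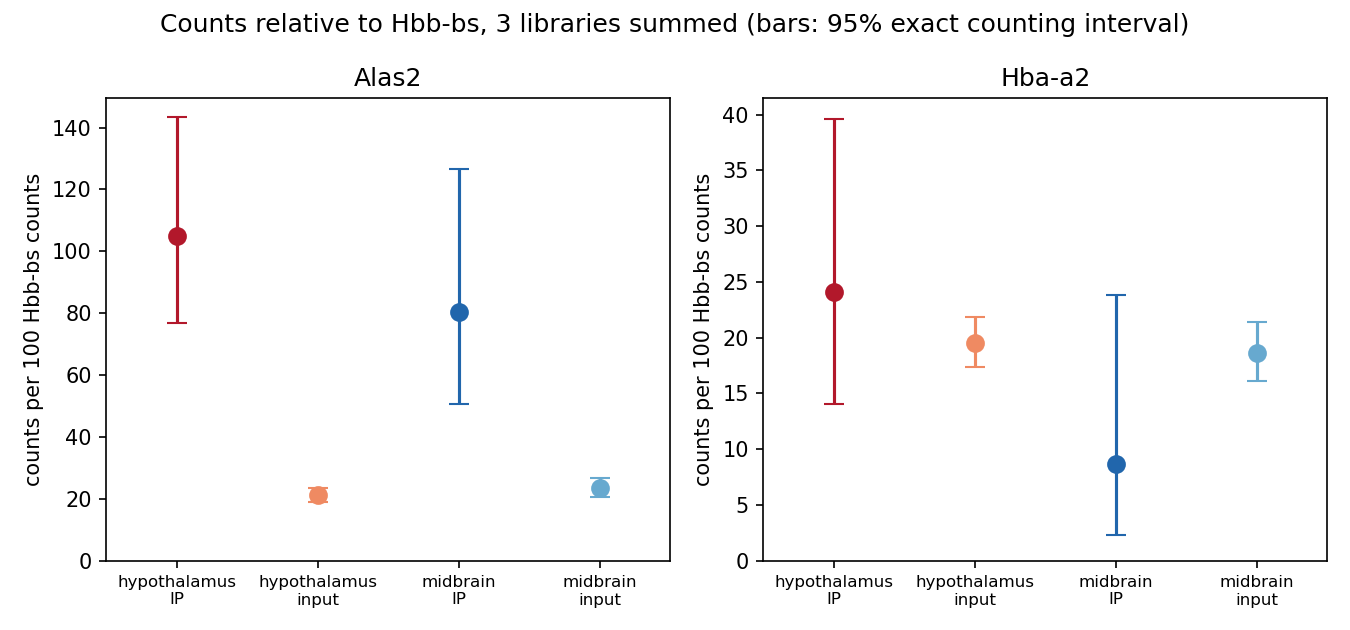
Counts of Alas2 and Hba-a2 per 100 counts of Hbb-bs, summed over the 3 libraries of each group, with 95% exact counting intervals as bars, which leave out the spread between libraries. The Alas2 ratio is 105 in the hypothalamus IP (60.9 without replicate 3) against 21.1 in its input, and 80.4 in the midbrain IP (44.7 without replicate 1) against 23.4 in its input.

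The 10393 genes compared by profile had a mean of at least 5 CPM. Gm, Rik and LOC symbols, sequence accessions and symbols starting with a digit were left out. The genes closest to each globin in profile over the 12 libraries were found by the root mean square difference of centred log2 CPM. For Ngb these were the neurotensin gene Nts (0.48), Wdr6 (0.49), the retinoid receptor gene Rxrg (0.49), the glutathione peroxidase gene Gpx3 (0.53) and Crhbp (0.53), which encodes the binding protein of corticotropin-releasing hormone. Like Ngb, all 5 had their highest mean in the hypothalamus IP and their lowest in the midbrain input: Gpx3, for example, averaged 496 CPM in the hypothalamus IP, 142 in the hypothalamus input, 92.5 in the midbrain IP and 24.2 in the midbrain input. For Cygb the differences were smaller, at 0.14 for the tubulin ligase-like gene Ttll11, 0.16 for Zmiz2 and Prrt2, 0.17 for the p38 kinase gene Mapk11 and 0.18 for Rab4b. Ngb and Cygb themselves differed by 1.19. For Hbb-bs the closest were Lims2 (0.61), the amylase gene Amy1 (0.65), Rfx4 (0.66), Pla2g16 (0.67) and Wsb1 (0.71), while Hba-a2, which is below the level needed to enter the list, differed from Hbb-bs by 0.50. The 12 libraries share fractions, regions and replicate numbers, so these are descriptions of profiles.

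The genes that make, carry and use haem and iron were read from lists. Of the 8 enzymes of haem synthesis other than Alas2, Alad and Uros rose in the hypothalamus IP against its input (log2 fold changes 1.09 and 0.98), and Uros (1.01) rose while Cpox fell by 0.75 in the midbrain. The other 6 in each region did not pass edgeR's test, and the list medians were 0.37 and 0.11. Uros averaged 24.7 ± 4.11 CPM in the hypothalamus IP against 12.5 ± 0.58 CPM in its input, and 19.5 ± 5.60 CPM in the midbrain IP against 9.66 ± 1.57 CPM in its input (SD, n = 3 each). Over all genes, 14.2% were called higher and 19.6% lower in the hypothalamus, and 14.0% and 19.9% in the midbrain.

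Of 12 tested genes of haem breakdown, scavenging and transport, 2 rose, 1 fell and 9 did not pass in each region, with medians of −0.16 in the hypothalamus and −0.20 in the midbrain. Among all genes tested, 14.2% were called higher and 19.6% lower in the hypothalamus, and 14.0% and 19.9% in the midbrain. The mitochondrial carriers Slc25a38, which brings glycine in for haem synthesis, and Slc25a39, which carries glutathione, rose in both regions (log2 fold changes 1.45 and 1.36 in the hypothalamus, 1.43 and 1.09 in the midbrain). Cd163, the haemoglobin scavenger receptor of macrophages, fell in both. It had no count in any hypothalamus IP library against 1.04 CPM in the input, and averaged 0.131 CPM in the midbrain IP against 1.77 CPM in the input.

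Of the 12 genes of iron uptake, storage and export, 7 fell and none rose in either region by edgeR's test, with medians of −1.29 and −1.01. Among all genes tested, 19.6% were called lower and 14.2% higher in the hypothalamus, and 19.9% and 14.0% in the midbrain. Trf, the iron carrier transferrin, which in brain is made largely by oligodendrocytes, averaged 2.48 CPM in the hypothalamus IP against 90.8 CPM in its input, and 13.4 CPM in the midbrain IP against 206 CPM in its input. Cp, the ferroxidase ceruloplasmin of astrocytes, had log2 fold changes of −7.08, from 4 counts over the hypothalamus IP libraries, and −2.76, and the ferritin heavy chain gene Fth1 of −1.75 and −2.11. The iron exporter gene Slc40a1 fell in the midbrain (−3.78). These genes moved in the same libraries as the oligodendrocyte and astrocyte markers, of which all 8 and all 8 fell in both regions, and the part of those cells in the list's values was not tested.

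**Figure D5:**
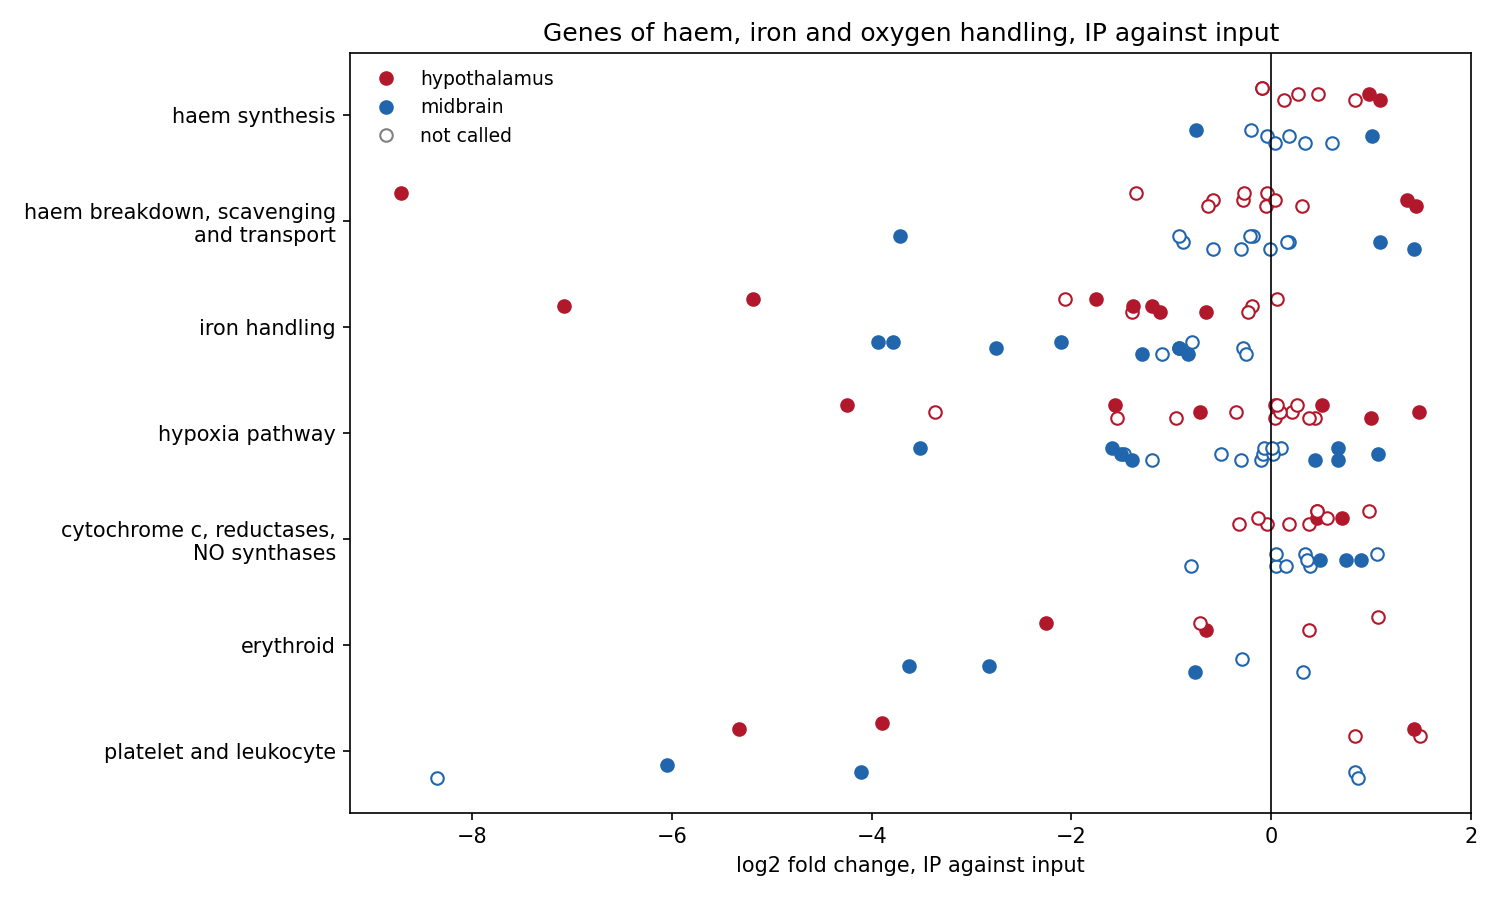
Log2 fold changes, IP against input, of the tested genes in 7 lists of haem, iron, oxygen and blood genes, with the hypothalamus above the midbrain in each row. Filled points passed edgeR's test and open points did not; the iron genes lie at or below 0 almost throughout, and the genes of cytochrome c and its partners mostly above it.

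Genes of the low-oxygen response, a pathway to which neuroglobin has been linked, moved in both directions. Of 18 genes, 3 rose and 3 fell in the hypothalamus IP, with 12 short of the threshold. In the midbrain IP 4 rose and 4 fell, with 10 short of it. The list medians were 0.05 and −0.09. The shares over all genes tested were 14.2% higher and 19.6% lower in the hypothalamus, and 14.0% and 19.9% in the midbrain. Epas1, an oxygen-sensing factor of endothelium and glia, averaged 5.79 CPM in the hypothalamus IP against 110 CPM in its input, and 12.6 CPM in the midbrain IP against 143 CPM in its input. Its partner Arnt had log2 fold changes of −1.57 and −1.59 and the growth factor gene Vegfa of −0.71 and −1.50, all past the threshold. The target genes Ankrd37 (1.48 and 1.07), Bnip3 (1.00 and 0.43) and Ldha (0.51 and 0.67) rose in the hypothalamus and the midbrain. Of the 10 endothelial markers, 8 fell in the hypothalamus and 6 in the midbrain, and none rose.

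Of 11 tested genes for cytochrome c, which neuroglobin is reported to bind, for reductases that can return globins to their reduced state, and for nitric oxide synthases, 2 rose and 9 did not pass in the hypothalamus, and 3 rose and 8 did not pass in the midbrain. The cytochrome b5 reductase gene Cyb5r3 (0.71 and 0.75) and the cytochrome b5 gene Cyb5b (0.46 and 0.49) rose in both, and the cytochrome c gene Cycs in the midbrain (0.90). The medians were 0.46 and 0.36, and over all genes tested 14.2% were called higher in the hypothalamus and 14.0% in the midbrain.

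Other genes of blood cells were too low for most tests. Of 15 erythroid genes with a row, 5 were tested. Ermap, a red-cell membrane protein gene, had log2 fold changes of −2.25 in the hypothalamus and −2.82 in the midbrain, and Slc25a37, which brings iron into mitochondria, of −0.65 and −0.77, all past the threshold, and the list medians were −0.65 and −0.77. Tal1, a blood factor that is also made in midbrain GABAergic neurons, averaged 1.83 CPM in the midbrain IP against 22.7 CPM in the midbrain input (log2 fold change −3.63), and was one of the list's 3 fallen genes there. Of the 15 genes, 6 had no count in any hypothalamus IP library against 1 in the hypothalamus input, and 9 had none in the midbrain IP against 5 in the midbrain input. The direction was not the same throughout: picked out after their values were seen, Rhd held 32 counts over the hypothalamus IP libraries against 11 over the inputs, Gata1 26 against 4, Klf1 44 against 20 and Trim10 9 against 7. Only Klf1 of these 4 was tested, and it did not pass edgeR's test in either region. In the midbrain its log2 fold change was −0.29. There Rhd and Trim10 had no count in any IP library but had counts in the inputs, and Gata1 had none in either fraction. The summed level of the list in the IP was 108% of the input in the hypothalamus and 90.4% in the midbrain, and most of it came from Bpgm, an enzyme gene picked out after its values were seen, which averaged 150.2 CPM in the hypothalamus IP against 115 CPM in its input and 176 CPM in the midbrain IP against 141 CPM in its input. Of 5 tested platelet and leukocyte genes, Ptprc (−5.33 and −4.11), for the leukocyte antigen CD45, and Pf4 (−3.90 and −6.05), for a platelet factor also found in brain macrophages, fell in the hypothalamus and the midbrain, while the integrin gene Itga2b rose in the hypothalamus (1.43). The list medians were 0.84 in the hypothalamus and −4.11 in the midbrain, or −3.73 there with a gene at 0 in the IP set at the floor of 3 counts per library.

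The order of the groups summarises the 5 genes. For Ngb it was hypothalamus IP, midbrain IP, hypothalamus input and midbrain input, and of the neighbours in that order only the last pair did not overlap. For Cygb the order was midbrain IP, hypothalamus IP, midbrain input and hypothalamus input, and again only the last pair did not overlap. For Hba-a2, Hbb-bs and Alas2 it was hypothalamus input, midbrain input, hypothalamus IP and midbrain IP. The 2 inputs overlapped for each of these 3 genes, the inputs stood clear of the IPs, and the 2 IPs overlapped for Hbb-bs and Alas2.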

How the data were processed

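Ribosome-bound RNA and whole-tissue RNA were sequenced in 12 libraries, 3 in each of 4 groups taken from the sample titles. The deposited tables, 1 for each library, list whole-number read counts by gene symbol. Per the submitters' processing notes, the tools were STAR 2.0.0e and HTSeq and the build mm10; the annotation, the strand setting and the counting mode are not given in the sources used here. The 5 summary rows of HTSeq and the row of unnamed features were left out.

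The counts were fitted with edgeR 4.0.16 (R 4.3.3): filterByExpr, scaling by the trimmed mean of M values (TMM), 1 fit of 4 group means over the 12 libraries, and the robust quasi-likelihood F test with Benjamini-Hochberg adjustment over 18128 genes at a threshold of 0.05. SEs are the log2 fold change over the root of F, and intervals are 1.96 SEs wide on each side. DESeq2 1.42.0, limma-voom (limma 3.58.1), other scalings, no filter beyond 1 count, a replicate block, and leaving out each library were tried. Leaving out replicate 1 in all groups, and each library for the ratios to Hbb-bs, was added after the data were seen. The fit was tested on simulated counts.

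Deviations from the group means correlated between same-numbered libraries by 0.155 to 0.324 for hypothalamus IP and input, 0.0754 to 0.189 for midbrain IP and input, 0.113 to 0.301 between the IPs and 0.141 to 0.379 between the inputs. The labels also give IP and input of 1 region and number a shared lane. The numbers were therefore taken as pairing the libraries, with 1 midbrain pair below 0.1. The main fit did not use this pairing, and its p-values leave it out. Of the fits, only the one with the replicate block used it.

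Loci, exon lengths and coding sequences came from GENCODE M21 on mm10 by symbol, and start-site regions from RefSeq, which matched 5 of the 7 genes. The genes and lists were chosen with earlier results of these data known. Named genes are the 7, the 5 closest profiles for Ngb, Cygb and Hbb-bs, and up to 3 called genes a direction and region from each list by log2 fold change (any gene of a list of 9 or fewer). Hbb-b2, Apex2, Prcd, Rn45s, Bpgm, Rhd, Gata1, Klf1, Trim10, Esam and Pecam1 fall outside this rule and were picked after their values were seen. The result of 1 list gene is not reported here.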

Additional observations from a re-analysis of the deposited data

How the results depend on the processing

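Of 475 values of the 5 genes under an alternative, 455 kept their direction and their side of the threshold or moved by less than 1 SD of the replicate pairs. The Ngb value of IP against input ranged from 0.86 to 1.51 in the hypothalamus and from 1.84 to 2.59 in the midbrain when 1 library was left out. Signs turned for values near 0: the regional difference of Cygb was 0.11 without midbrain IP replicate 1 or hypothalamus IP replicate 3, 0.02 without midbrain input replicate 1 or hypothalamus input replicate 3, and 0.0466 without replicate 1 in all groups, with a range of −0.24 to 0.11 when 1 library was left out. That of Hbb-bs was −0.36 without replicate 1 in all groups. Between the inputs, without hypothalamus input replicate 2, Hba-a2 was −0.0291 and Hbb-bs −0.0601, in ranges of −0.0291 to 0.749 and −0.0601 to 0.654. With the replicate block, Ngb gained a call between the IPs and in the regional difference, and no other call of the 5 genes changed. Calls in the regional difference numbered 14 in the main analysis, 213 by DESeq2, 8 by limma-voom, 105 with the block, 8 to 33 without 1 library and 9 without replicate 1 in all groups. Between the IPs they numbered 773, 1800 by DESeq2, 2024 with the block and 373 to 758 without 1 library. Between the inputs they numbered 291, 777 by DESeq2, 1097 with the block and 93 to 364 without 1 library. The cause of these changes was not tested. Depth limits Hba-a2 in the midbrain IP, at 4 counts in all, and intervals between groups for the blood genes are wide.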

Other observations

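Other members of the globin family were at or below about 1 CPM in the ribosome fraction. Adgb, for androglobin, a large globin known from testis and ciliated cells, averaged 0.355 ± 0.364 CPM in the hypothalamus IP against 5.35 ± 1.75 CPM in the hypothalamus input, and 0.355 ± 0.524 CPM in the midbrain IP against 0.756 ± 0.290 CPM in the midbrain input (SD, n = 3 each). Its log2 fold change of −3.90 in the hypothalamus passed edgeR's test (adjusted p = 0.0161), and that of −1.07 in the midbrain did not (adjusted p = 0.457). Mb, for the myoglobin of muscle, averaged 1.09 ± 0.72 CPM in the hypothalamus IP against 0.831 ± 0.532 CPM in its input, and 0.747 ± 0.544 CPM in the midbrain IP against 0.984 ± 0.502 CPM in its input, with no call in either region. The theta-globin rows Hbq1a and Hbq1b had 14 to 60 counts over a group's IP libraries against 3 to 20 over its inputs, and neither was called. The sums of Hbq1b rest on few libraries. In replicates 1, 2 and 3 it had 0, 0 and 14 counts in the hypothalamus IP against 1, 2 and 0 in its input. The midbrain IP held 43, 16 and 1 counts of it against 7, 0 and 1 in its input. Of the embryonic chains, Hbb-bh1 and Hbb-bh2 had no count in any library.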
